A study of Rattus norvegicus with 6 samples.

Results

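Matrix metalloproteinases (MMPs), ADAMs, the secreted ADAMTS proteinases with their ADAMTS-like relatives, and the tissue inhibitors of metalloproteinases (TIMPs) were followed in cultured synovial fibroblast-like cells of arthritic rats. The members were taken by symbol alone, as every transcript whose gene symbol is Mmp, Adam, Adamts, Adamtsl or Timp followed by a number. A further letter was allowed for Mmp and Adam. The rule uses no measured value, though it was chosen with earlier results of these data known. This gave 57 genes of the 16499 symbols in the table, with 20 Mmp, 18 Adam, 12 Adamts, 3 Adamtsl and 4 Timp genes, each on a single row. RNA was sequenced from 2 preparations of cells of female Wistar rats with collagen-induced arthritis, grown in 3 media, so that every medium had 2 libraries. The study had expanded the cells in culture over several passages before use, and harvested them after a few days in these media. The labels mark these preparations RA1 and RA2 in each medium without saying that each comes from a single animal, and they are called rat 1 and rat 2 here. The FBS group was grown with fetal bovine serum, the MS− group with blood serum of untreated animals, and the MS+ group with blood serum of animals given mechanical stimulation by needle for 18 days, which the labels call acupuncture. All 6 libraries thus share the arthritic origin of the cells, and the comparison of MS+ with MS− asked what the serum of stimulated animals changed in them. The study describes MS− serum both as taken ahead of the therapy and as taken from arthritic animals left untreated, so stimulation, time and disease stage of the serum donors cannot be told apart in that comparison. The comparisons with FBS set rat blood serum against fetal bovine serum, so species and age of the serum donors differ as well. In MS+ against FBS these cannot be told apart from stimulation. The rats are called healthy in 1 field of the MS− labels and arthritic in the others. The animals behind each serum were not counted in the sources used here, so a replicate is a cell preparation and not a serum donor, and p-values carry no spread between sera.

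MMPs are zinc-dependent proteinases that cut collagens, gelatin, proteoglycans and other proteins outside the cell. ADAMs sit in the membrane and release the outer parts of cytokines, growth factors and receptors, ADAMTS enzymes are secreted and cut aggrecan, versican or the ends of procollagens, and TIMPs bind and block these enzymes with different preferences. In the inflamed joint, fibroblasts of the lining are a known source of collagenase, stromelysin and aggrecanase activity, and the balance of these enzymes with TIMPs is studied as a determinant of cartilage loss.

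Values are read counts scaled by library size with the TMM method, in the unit CPM. A library held 5463316 to 5991889 reads, and 3 reads, the floor used for detection, were worth 0.491 to 0.551 CPM. CPM is not divided by transcript length, so levels are compared between libraries and not between genes. Of 12 fibroblast markers, 10 reached 1 CPM in both libraries of a group, with Col1a1 at 23563 to 40458 CPM and Vim at 11486 to 16559 CPM, whereas Dcn and Lum stayed at or under 0.918 CPM. Prg4, counted among the 10, was low, at 1.27 to 3.32 CPM. The leukocyte marker Ptprc was at 0 in every library, 7 of 11 listed macrophage markers were at 0, and the macrophage sum of 13.8 to 20.9 CPM was nearly all Cd14. None of 6 neutrophil or 7 lymphocyte markers reached 1 CPM in both libraries of a group. The fibroblast sum was 81213 to 88068 CPM in FBS, 62851 to 65460 in MS− and 71295 to 73979 in MS+. The chondrocyte sum, mostly Acan, was 2589 to 3017 CPM in FBS, 1456 to 1829 in MS− and 2541 to 2673 in MS+, and the muscle sum (Acta1, Myh3 and Des reached 1 CPM) was 935 to 1122, 772 to 914 and 1029 to 1203 CPM in the same order. Of the chondrocyte list only Acan, Col11a2 and Matn3 reached 1 CPM in both libraries of a group, and Myod1, Myog and Ckm of the muscle list did not. These sums alone do not show that chondrocytes or muscle cells were present. The part of any such cells in the differences given here was not tested. In bulk RNA, fewer cells of a type and less RNA per cell cannot be told apart.

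Mmp3, Mmp9 and Mmp13, proteinases often linked with arthritic joints, were at or near 0 in these cells, while Mmp2, Mmp14, Adamts1 and Timp2 were abundant. Of the 57 members, 31 (54.4%) reached 1 CPM in both libraries of at least 1 medium and were tested, against 57.0% of all rows of the table; 16 had reads below that level and 10 had no read. The tested members were 9 of 20 Mmp, 6 of 18 Adam, 9 of 12 Adamts, all 3 Adamtsl and all 4 Timp genes, and 29 of them were at 1 CPM or more in all 6 libraries, the others being Mmp15 and Timp4. Timp4 passed through MS+ alone and so had to be higher there, and Mmp15 passed through MS+ and MS−. Mmp3 (stromelysin 1, which cuts proteoglycans and activates other MMPs) had 3 and 1 reads in MS+, 0 and 0 in MS−, and 0 and 4 in FBS (rats 1 and 2). Mmp13, the main collagenase of rodents, had 4 reads over all 6 libraries and at most 2 in any. Mmp9 (gelatinase B) had 4 and 1 reads in MS+, 0 and 0 in MS−, and 3 and 0 in FBS. These 3 genes were therefore at or close to the floor in every medium, and no difference between media was detectable at this depth. Their levels in the joint, or in cells before passaging, were not measured here. Adam10 has no row in the table and was not analysed here.

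**Figure D1:**
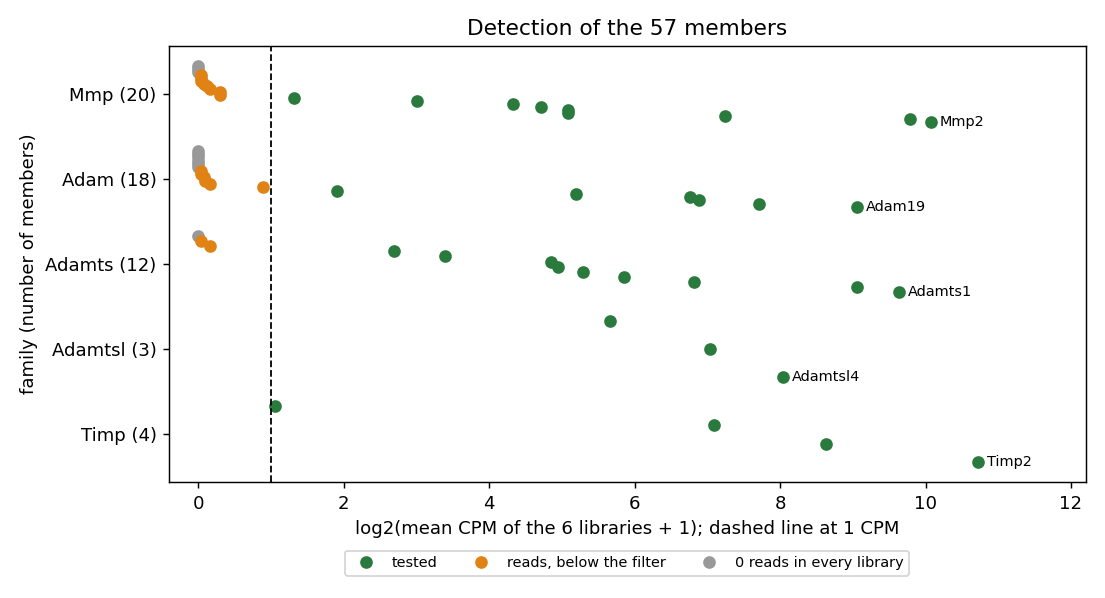
Mean level of each of the 57 members over the 6 libraries, as log2(CPM + 1) on the horizontal axis, by family on the vertical axis; each point is 1 gene and points are spread vertically within a family for legibility. Green points (31) were tested, orange points (16) had reads below the filter and grey points (10) had 0 reads, and the dashed line marks 1 CPM.

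Several of the low genes lie side by side. A run of 9 Mmp genes on chromosome 8 (rn4, 4158887 to 4533730, all on the plus strand: Mmp13, Mmp12, Mmp3, Mmp1a, Mmp10, Mmp8, Mmp27, Mmp20 and Mmp7) contains no row of another gene, and none of its members was tested. Reads were found for 6 of the 9, 19 reads in all over 6 libraries, with no more than 4 in a library for any gene. On chromosome 16 (rn4, 71446498 to 71779922), Adam9 took 7069 of the 7072 reads of a run of 4 Adam genes, Adam32 and Adam5 held the rest, and Adam3a had no read. By contrast, Adamts1 and Adamts5 lie on the same strand of chromosome 11 (rn4, 25434262 to 25548845) with 60235 bases and no other row between them, and both were expressed in all 6 libraries.

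To show what the near-silent genes of the chromosome 8 run share, the 150 bases before the start site are printed below for 6 of them and, for contrast, for 2 members that differed between media, Adamts1 and Timp3. Sequences are those of RefSeq on assembly GRCr8, on the strand of the gene and ending at the base before the start, and capitals mark TGAGTCA or TGACTCA (the letters bound by AP-1, a dimer of Fos and Jun proteins) and TATAAA (the TATA box).
Mmp13, chr8:12782679-12782828, plus strand: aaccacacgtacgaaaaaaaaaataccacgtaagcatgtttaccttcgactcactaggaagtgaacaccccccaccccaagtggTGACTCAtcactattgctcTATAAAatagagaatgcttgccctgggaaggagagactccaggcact
Mmp12, chr8:12866502-12866651, plus strand: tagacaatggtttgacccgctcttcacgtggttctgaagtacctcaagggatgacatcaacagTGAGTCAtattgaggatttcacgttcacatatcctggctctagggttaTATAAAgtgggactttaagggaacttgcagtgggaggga
Mmp3, chr8:12925131-12925280, plus strand: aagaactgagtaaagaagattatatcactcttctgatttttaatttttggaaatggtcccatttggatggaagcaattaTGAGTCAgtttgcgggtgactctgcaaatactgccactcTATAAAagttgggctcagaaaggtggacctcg
Mmp10, chr8:12974557-12974706, plus strand: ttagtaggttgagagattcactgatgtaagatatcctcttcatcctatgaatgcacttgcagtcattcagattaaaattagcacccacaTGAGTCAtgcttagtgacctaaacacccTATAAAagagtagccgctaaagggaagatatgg
Mmp7, chr8:13132893-13133042, plus strand: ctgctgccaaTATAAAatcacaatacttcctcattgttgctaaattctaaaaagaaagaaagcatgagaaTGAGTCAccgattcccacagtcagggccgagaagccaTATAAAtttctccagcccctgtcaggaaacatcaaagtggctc
Mmp8, chr8:13008740-13008889, plus strand: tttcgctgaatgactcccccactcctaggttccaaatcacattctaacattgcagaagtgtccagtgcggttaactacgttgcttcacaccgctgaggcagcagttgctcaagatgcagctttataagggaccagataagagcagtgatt
Adamts1, chr11:38427385-38427534, minus strand: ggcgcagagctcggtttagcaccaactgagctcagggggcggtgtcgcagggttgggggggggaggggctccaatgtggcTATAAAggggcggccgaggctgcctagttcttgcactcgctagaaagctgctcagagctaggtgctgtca
Timp3, chr7:19459559-19459708, minus strand: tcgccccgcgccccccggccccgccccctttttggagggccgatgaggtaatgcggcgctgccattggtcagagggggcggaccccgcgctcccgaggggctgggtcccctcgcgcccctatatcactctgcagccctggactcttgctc
The first 5 hold both sets of letters in the same order, with the AP-1 letters beginning 61 to 87 bases and the nearest TATA box 32 to 47 bases before the start, and Mmp7 holds a further TATAAA upstream. Mmp8 and Timp3 hold neither, and Adamts1 holds TATAAA alone.

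In the 250 bases before the start, the AP-1 letters (TGAGTCA or TGACTCA, which are each other's reverse complement, so both strands are covered) were found in 5 of 8 promoters of the run that are in the RefSeq table, in 1 of 28 promoters of the other members and in 4.05% of 33469 rat promoters. The exception among the other members was Adam19, with TGAGTCA beginning 169 bases before the start. Like Adamts1 and Timp3, Adam19 differed between media, so the 2 promoters printed for contrast do not stand for all such members. TATAAA, searched on the strand of the gene, was found in 6 of the 8, in 2 of the 28 (Adamts1 and Mmp21) and in 8.05% of all promoters. GGGCGG or its reverse complement CCGCCC was found in 0 of the 8, in 17 of the 28 and in 30.5% of all promoters. A promoter was available for 36 of the 57 members. A match describes letters and not binding, and the search was chosen after the low counts of the run had been seen.

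In cells with serum of stimulated animals, 4 of the 5 tested ADAMTS enzymes that cut aggrecan and versican were higher than in cells with FBS, Adamts1 and Adamts4 in either fit, that of Adamts4 without the block being lost when any 1 library was left out, and Adamts5 and Adamts9 only with the rat as a block. Timp3, Mmp16 and Adam19 were lower than with FBS in either fit. Without the block, the Adam19 call was lost with no filter on low values. Differences were tested with limma on log2(CPM + 1) in 1 fit over all 9820 features, at a Benjamini-Hochberg adjusted p under 0.05, without and with the rat as a block, since the labels RA1 and RA2 stand in every medium. In MS+ against FBS, 6 of 31 members (19.4%) passed without the block, 3 higher and 3 lower, beside 9.61% of all features (4.95% higher, 4.66% lower). With the block 14 (45.2%) passed, 10 higher and 4 lower, beside 28.2% (14.4% higher, 13.9% lower). One of the 10 is Timp4, which passed the filter through MS+ alone and so had to be higher there. Of the 31, 3 members (9.68%) in MS− against FBS passed without the block, 1 higher and 2 lower, beside 4.81% (2.09% higher, 2.72% lower), and 12 (38.7%) passed with it, 6 in each direction, beside 20.5% (10.8% higher, 9.63% lower). Both comparisons use the same FBS libraries, and in both the species of the serum donors differs as well. In MS+ against MS−, 0 of 31 passed without the block, beside 0.0204% of all features (0.0102% in each direction). There, 5 of the 31 members were at an unadjusted p under 0.05 in limma, beside 1446 of 9820 features. In that comparison edgeR and limma-voom also passed 0 members and DESeq2 passed 3 (Adamts1, Adamts14 and Mmp16). The share of all features passing in DESeq2 is not given here. With the block 6 (19.4%) passed, 5 higher and 1 lower, beside 10.1% of all features (5.27% higher, 4.78% lower).

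The 5 members higher in MS+ than in MS− under the block were all ADAMTS genes (Adamts1, Adamts5, Adamts9, Adamts14 and Adamts15), and the lower one was Mmp16. Leaving out each library in turn under the block gave 2 to 10 members in this comparison, the lowest being 2 (MS− replicate 2 left out) and 3 (MS− replicate 1), and the highest 10 (MS+ replicate 1). Adamts1 and Adamts5 passed in all 6 of these fits, 4 of which leave MS+ or MS− with a single library whose spread is taken to be that of the others. The range was 12 to 14 members in MS+ against FBS and 5 to 15 in MS− against FBS, where the lowest counts came without MS− replicate 1 (5), MS− replicate 2 (6) and FBS replicate 1 (6). For the fits with a library left out, the share of all features passing is not given here, so these counts are not set against it. The thresholds used in the study (unadjusted p under 0.05, at least a 2-fold change, and 1 CPM or more on average) were applied here to limma on log2(CPM + 1) without the block, whereas the study applied them to limma-voom. In this form they were met in MS+ against FBS by 4 members (one of them Timp4) beside 5.3% of all features, in MS− against FBS by 2 members beside 3.62%, and in MS+ against MS− by 0 members beside 1.24%. The median log2 fold change of the 31 members was -0.02 in MS+ against MS−, 0.09 in MS+ against FBS and 0.18 in MS− against FBS, beside -0.01, 0.00 and 0.01 over all 9820 features. For the 9 tested Adamts genes the same medians were 0.64 (8 higher, 1 lower), 0.90 (7 and 2) and 0.25 (7 and 2).

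**Figure D2:**
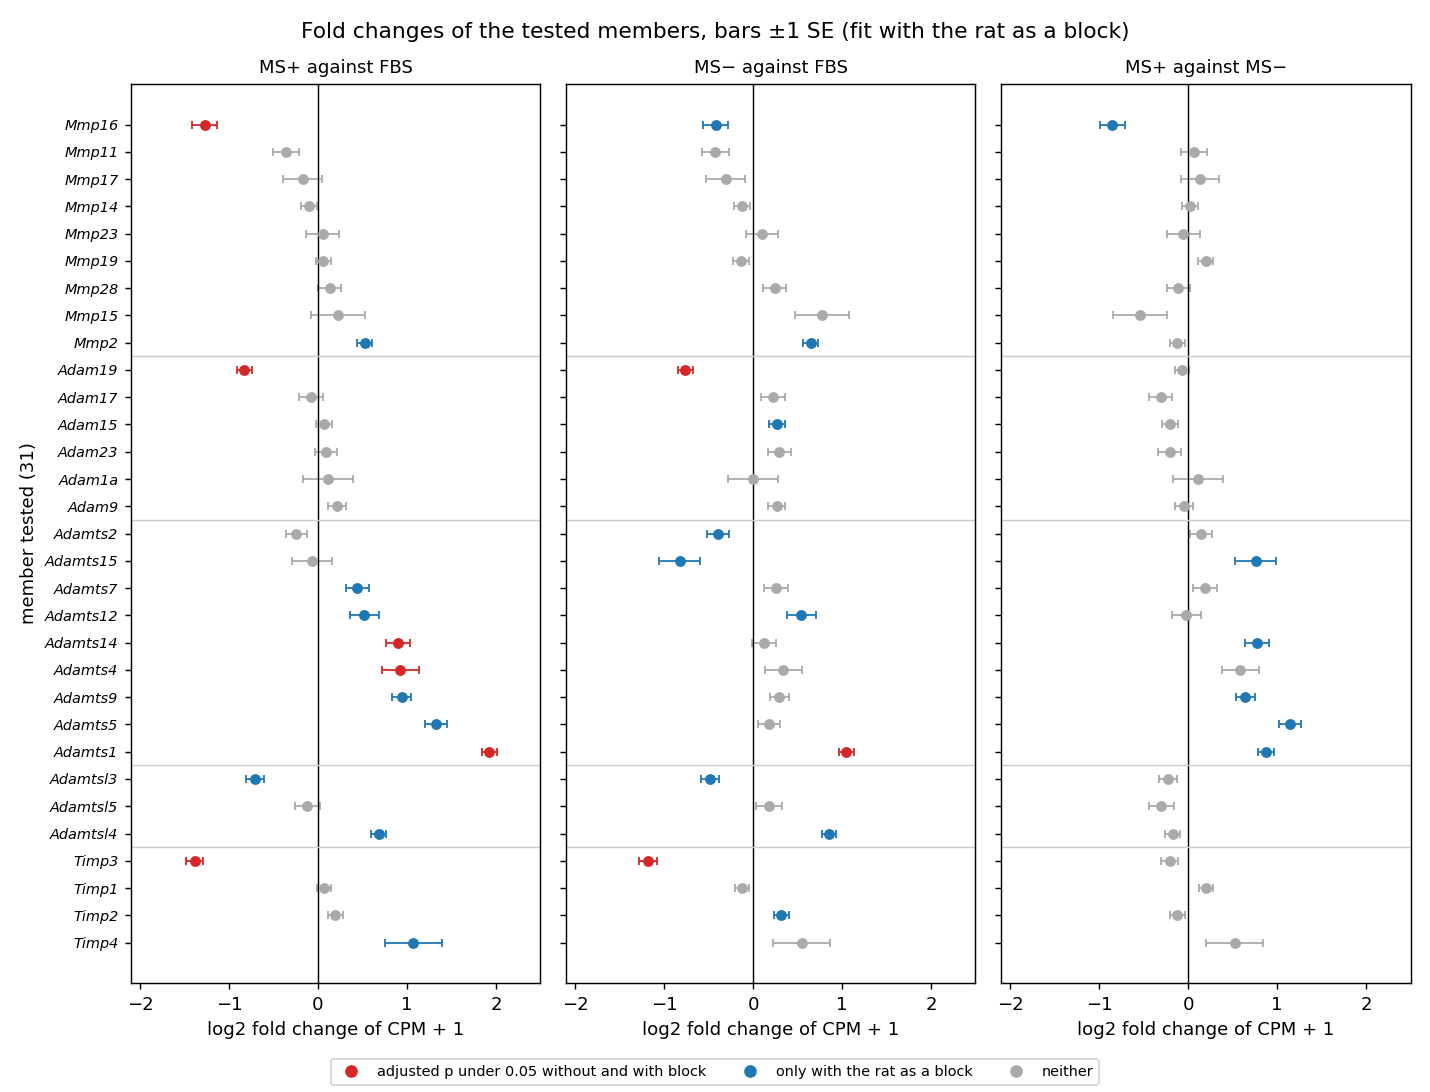
Log2 fold change of CPM + 1 for the 31 tested members in MS+ against FBS (left), MS− against FBS (middle) and MS+ against MS− (right), grouped by family; bars are ±1 SE of the limma fit with the rat as a block. Red points passed an adjusted p of 0.05 without and with the block (6, 3 and 0 members), blue points passed only with it (8, 9 and 6) and grey points passed neither.

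Adamts1, an aggrecan- and versican-cutting enzyme that is also known as an inflammation-induced gene, had the largest difference of any member in these comparisons (NM_024400, chromosome 11, 25434262 to 25443144 in rn4, minus strand). It measured 1318 and 1322 CPM in MS+, 685 and 754 in MS−, and 312 and 384 in FBS, for rats 1 and 2. The 3 media did not overlap and stood in the same order in both rats. Its log2 fold change over FBS was 1.93 in MS+ (SE 0.12, adjusted p 0.00148 in limma) and 1.05 in MS− (SE 0.12, adjusted p 0.00752 in limma). Between MS+ and MS− it was 0.88, which passed with the block (SE 0.09, limma adjusted p 2.52e-05) and not without it (SE 0.12, limma adjusted p 0.0917). The MS− against FBS call was lost without MS− replicate 1 (limma adjusted p 0.0520) or MS− replicate 2 (0.0654), while that of MS+ against FBS passed in all 18 alternatives.

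Adamts5, the enzyme whose loss protects mouse cartilage in surgical models, lies beside Adamts1 (NM_198761, chromosome 11, 25503380 to 25548845, minus strand). It measured 56.9 and 127 CPM in MS+, 26.2 and 54.8 in MS−, and 19.3 and 56.9 in FBS. Rat 2 cells held more Adamts5 than rat 1 cells in every medium, so the media overlapped between MS− and FBS although MS+ was the highest in each rat. The log2 fold change in MS+ against MS− was 1.09 in rat 1 and 1.20 in rat 2, with a mean of 1.15 (SE 0.13 with the block). Its limma adjusted p was 5.82e-05 with the block and 0.439 without it. Its difference in MS+ against FBS was 1.33 (SE 0.13 with the block), with a limma adjusted p of 1.69e-06 with the block and 0.202 without it. Without the block, the values ran from 0.57 to 1.72 in MS+ against MS− and from 0.57 to 2.08 in MS+ against FBS when 1 library was left out.

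Adamts4, the other principal aggrecanase, was low (NM_023959, chromosome 13, 87142442 to 87151783, plus strand). It measured 11.9 and 14.9 CPM in MS+, 7.87 and 9.22 in MS−, and 7.53 and 5.64 in FBS, from 321 reads in all. Both MS+ libraries were above the other 4. In MS+ against MS− the log2 fold change was 0.59, which did not pass (limma adjusted p 0.283 without the block and 0.0898 with it). The log2 fold change in MS+ against FBS was 0.93 (SE 0.21, limma adjusted p 0.0435). This call passed in 9 of 18 alternatives: leaving out any 1 library raised the limma adjusted p to 0.0730 to 0.179, and it was also lost with no filter on low values (limma, 0.0819), with scaling by library totals (limma, 0.0524) and in DESeq2 (0.0869). The blocked call was lost without FBS replicate 2.

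Adamts9, which cuts versican and aggrecan, measured 122 and 181 CPM in MS+, 69.5 and 129 in MS−, and 53.0 and 112 in FBS (NM_001107877, chromosome 4, 126996604 to 127198909, minus strand). As with Adamts5, rat 2 was the higher in each medium and MS+ was the highest in each rat. In MS+ against MS− the log2 fold change was 0.64 (SE 0.11 with the block), with a limma adjusted p of 0.00185 with the block and 0.535 without it. The blocked call was lost without either MS− library, and the unblocked value ran from 0.20 to 1.09 when 1 library was left out. Against FBS, MS+ was higher by 0.94 (SE 0.11 with the block), with a limma adjusted p of 1.42e-05 with the block and 0.196 without it, and the unblocked value ran from 0.41 to 1.47 in the same way. Adamts15, a versicanase of low count here (188 reads), was lowest in MS− in both rats, at 5.12 and 1.81 CPM, beside 8.11 and 4.40 in MS+ and 8.84 and 4.48 in FBS. Its 2 differences passed only with the block in limma, at 0.76 in MS+ against MS− (SE 0.23 with the block, limma adjusted p 0.0458 with it and 0.523 without it) and -0.82 in MS− against FBS (limma adjusted p 0.0175 and 0.376). The MS+ against MS− call of Adamts15 was not reached by edgeR with the block, and in limma it was lost without either MS+ or either MS− library, while the unblocked value ran from 0.20 to 1.32 when 1 library was left out. Its MS− against FBS call was lost under the block without either FBS or either MS− library, with unblocked values of -1.39 to -0.26. Over the 5 tested enzymes of this kind (Adamts1, 4, 5, 9 and 15), the median log2 fold change was 0.76 in MS+ against MS−, with all 5 positive, beside 4812 of 9820 features. That median is the value of Adamts15, and 0 of the 5 passed in this comparison without the block.

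**Figure D3:**
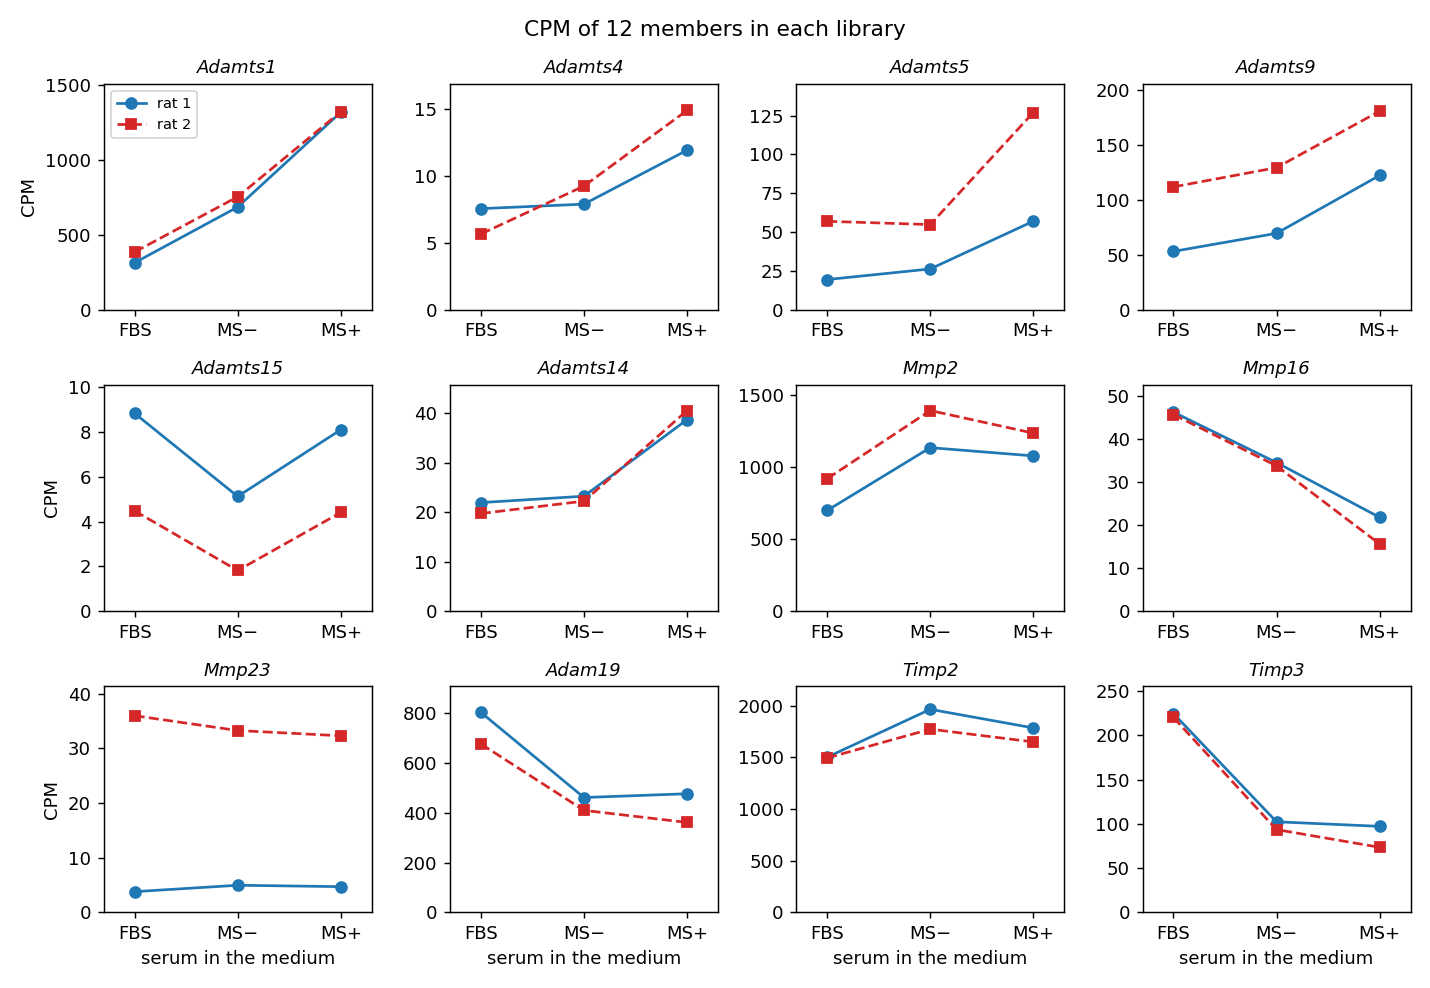
CPM of 12 members in each of the 6 libraries, with the serum in the medium on the horizontal axis and a linear vertical axis from 0; each panel is 1 gene, blue circles are rat 1 and red squares rat 2, and lines join libraries of 1 rat. Adamts1 stands at 1318 and 1322 CPM in MS+ and Timp3 at 225 and 220 CPM in FBS, while the rats are apart in every medium for Mmp23 and Adamts5.

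The procollagen N-proteinases, which trim the ends of fibrillar procollagens, moved differently from each other. Adamts14 measured 38.7 and 40.6 CPM in MS+, 23.2 and 22.2 in MS−, and 21.9 and 19.7 in FBS (NM_001107636, chromosome 20, 28555684 to 28631824, minus strand). Both MS+ libraries were above all others. The log2 fold change in MS+ against FBS was 0.90 (SE 0.13, limma adjusted p 0.0105), and in MS+ against MS− it was 0.78 (limma adjusted p 0.00207 with the block and 0.111 without it). The MS+ against FBS call was lost without FBS replicate 1 or 2 or MS+ replicate 1 or 2 (limma adjusted p 0.0542 to 0.0771), and the blocked MS+ against MS− call without either MS− library. Adamts2 measured 45.0 and 28.6 CPM in MS+, 43.7 and 23.9 in MS−, and 53.9 and 33.8 in FBS. Only under the block did it pass, in MS− against FBS, at -0.39 (SE 0.12 with the block, limma adjusted p 0.0332 with it and 0.584 without it), and without MS− replicate 2 the unblocked value was 0.03. The blocked call was lost without either FBS or either MS− library.

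Of the remaining ADAMTS enzymes, Adamts12 and Adamts7 are known to cut the cartilage protein COMP. Adamts12 measured 806 and 403 CPM in MS+, 692 and 484 in MS−, and 379 and 415 in FBS. The rats parted in MS+, since rat 1 was higher than in FBS (log2 fold change 1.09) and rat 2 was not (-0.04). The mean difference of 0.52 passed only with the block (SE 0.16, limma adjusted p 0.0264 with it and 0.336 without it), as did 0.54 in MS− against FBS (limma adjusted p 0.0280 and 0.386). Under the block the first was lost without FBS replicate 1, MS+ replicate 1 or either MS− library, and the second without FBS replicate 1 or either MS− library. With 1 library left out and no block, the values ran from 0.02 to 1.02 and from 0.29 to 0.80. Adamts7 measured 40.5 and 28.4 CPM in MS+, 33.8 and 26.0 in MS−, and 26.5 and 23.0 in FBS, and its difference of 0.44 in MS+ against FBS passed only with the block (limma adjusted p 0.0211 with it and 0.222 without it) and was lost there without the same 4 libraries as the first call of Adamts12.

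The ADAMTS-like proteins lack the proteinase domain and bind the matrix, in part together with fibrillin. Adamtsl4 was higher with either rat serum than with FBS, at 233 and 341 CPM in MS+, 275 and 366 in MS−, and 141 and 217 in FBS. Its log2 fold change was 0.68 in MS+ against FBS (limma adjusted p 2.17e-05 with the block and 0.148 without it) and 0.85 in MS− against FBS (2.54e-06 with the block and 0.128 without it, limma). Adamtsl3 went the other way, at 85.4 and 121 CPM in MS+, 101 and 140 in MS−, and 158 and 175 in FBS. It differed by -0.71 in MS+ against FBS (limma adjusted p 7.26e-05 with the block and 0.0796 without it) and by -0.48 in MS− against FBS (limma adjusted p 0.00260 and 0.240), the latter lost under the block without FBS replicate 1 or MS− replicate 1. Adamtsl5 ranged from 36.5 to 58.5 CPM and passed in no comparison.

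Among the MMPs, the abundant members were the gelatinase Mmp2 and the membrane-bound Mmp14, which activates the Mmp2 proenzyme on the cell surface together with TIMP-2. Mmp2 measured 1075 and 1233 CPM in MS+, 1133 and 1390 in MS−, and 697 and 917 in FBS (NM_031054, chromosome 19, 15246036 to 15275061, minus strand). Each FBS library was below all 4 libraries with rat serum. The difference was 0.53 in MS+ against FBS (SE 0.08 with the block, limma adjusted p 2.31e-04 with it and 0.103 without it) and 0.65 in MS− against FBS (limma adjusted p 4.19e-05 and 0.0892). Mmp14 measured 1039 and 707 CPM in MS+, 987 and 726 in MS−, and 993 and 856 in FBS, so the media overlapped and no comparison passed with or without the block.

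Mmp16, a membrane-type relative of Mmp14, was the MMP that differed most between media (NM_080776, chromosome 5, 32352311 to 32586469, plus strand). It measured 21.8 and 15.6 CPM in MS+, 34.6 and 33.8 in MS−, and 46.3 and 45.8 in FBS. The order was the reverse of that of Adamts1, with no overlap between any pair of media. It fell by 1.27 on the log2 scale in MS+ against FBS (SE 0.17, limma adjusted p 0.00889). In MS+ against MS− the value was -0.85 (limma adjusted p 0.00138 with the block and 0.126 without it), and in MS− against FBS it was -0.42 (limma adjusted p 0.0462 and 0.213). The MS+ against FBS call was lost without FBS replicate 1 (limma adjusted p 0.0632) or FBS replicate 2 (0.0501). Under the block, the MS+ against MS− call was lost without MS− replicate 2, and the MS− against FBS call without either FBS or either MS− library.

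The other tested MMPs passed in no comparison in limma, without or with the block, while Mmp11 passed in MS− against FBS in edgeR with the block. Mmp19, first described as an autoantigen in rheumatoid arthritis, ranged from 129 to 164 CPM. Mmp28 ranged from 27.4 to 36.3, Mmp11 from 19.7 to 31.8, Mmp17 from 5.04 to 9.62 and Mmp15 from 0.491 to 3.43 CPM. Mmp23, a membrane-anchored MMP without a hemopexin domain, separated the rats and not the media: it measured 4.68, 4.94 and 3.77 CPM in rat 1 (MS+, MS− and FBS) and 32.3, 33.3 and 36.0 CPM in rat 2.

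Among the ADAMs, Adam19, a shedding enzyme of neuregulin and other membrane ligands, was lower with either rat serum (NM_001160228, chromosome 10, 31190242 to 31282772, plus strand). It measured 477 and 361 CPM in MS+, 461 and 410 in MS−, and 804 and 677 in FBS. Both FBS libraries were above the other 4, which overlapped each other. It fell by 0.83 on the log2 scale in MS+ against FBS (SE 0.16, limma adjusted p 0.0258) and by 0.76 in MS− against FBS (SE 0.16, limma adjusted p 0.0461). Leaving out a single library ended the first call for FBS replicate 1, FBS replicate 2, MS− replicate 1, MS+ replicate 1 and MS+ replicate 2 (limma adjusted p 0.0521 to 0.132) and the second for all but MS+ replicate 2 (0.0511 to 0.245). With the block both passed, at limma adjusted p values of 3.00e-06 and 7.82e-06. Without the block, both calls were also lost with no filter on low values, and the MS− against FBS call in edgeR (adjusted p 0.0508).

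Adam17, the sheddase that releases tumour necrosis factor, was expressed and did not pass in any comparison. It measured 101 and 93.8 CPM in MS+, 115 and 126 in MS−, and 81.4 and 130 in FBS, with the widest spread within FBS. Adam15 differed by 0.27 in MS− against FBS (limma adjusted p 0.0385 with the block, lost there without either FBS or either MS− library, and 0.133 without the block) and measured 112 and 115, 130 and 132, and 109 and 108 CPM in MS+, MS− and FBS. Adam9 ranged from 172 to 234, Adam23, which lacks the catalytic residues, from 27.7 to 47.9, and Adam1a from 2.16 to 3.85 CPM, with no call.

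The inhibitors did not move together. Timp3, the TIMP that binds to the matrix and blocks ADAM17 and the aggrecanases as well as MMPs, was lower with either rat serum (NM_012886, chromosome 7, 19677146 to 19727072, minus strand). It measured 97.1 and 73.4 CPM in MS+, 102 and 93.5 in MS−, and 225 and 220 in FBS. Both FBS libraries were more than 2-fold above all libraries with rat serum, and MS+ and MS− overlapped. Timp3 fell by 1.39 on the log2 scale in MS+ against FBS (SE 0.14, limma adjusted p 0.00526) and by 1.18 in MS− against FBS (SE 0.14, limma adjusted p 0.00762). The first passed in all 18 alternatives, and the second was lost without FBS replicate 1 (limma adjusted p 0.0718), MS− replicate 1 (0.0531) or MS− replicate 2 (0.0618).

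Timp2, which blocks Mmp2 and also takes part in its activation, measured 1784 and 1648 CPM in MS+, 1964 and 1772 in MS−, and 1501 and 1494 in FBS. Its difference of 0.32 in MS− against FBS passed only with the block (SE 0.09, limma adjusted p 0.0152 with it and 0.177 without it) and was lost there without FBS replicate 1 or either MS− library. Timp1, often raised in inflamed tissue, measured 404 and 435 CPM in MS+, 354 and 376 in MS−, and 386 and 412 in FBS, and passed in no comparison. Timp4 was close to the floor, with 6 and 15 reads in MS+, 3 and 8 in MS−, and 2 and 2 in FBS. Its fitted difference of 1.07 in MS+ against FBS met the study thresholds and the blocked threshold (limma adjusted p 0.0203 with the block and 0.130 without it), but it rests on few reads, was lost under the block without FBS replicate 2 or MS+ replicate 2, and ran from 0.65 to 2.54 over the alternatives, so it is no measure of size.

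All 4 Timp genes overlap a transcript of another symbol in rn4. Timp1, Timp3 and Timp4 each lie inside a synapsin gene on the opposite strand, and the synapsins had 17 (Syn1), 12 (Syn3) and 4 (Syn2) reads over the 6 libraries. Timp2 overlaps Ddc8 on the same strand, which measured 1.99 to 5.06 CPM. These are overlaps of transcript spans, and exons were not examined. Reads that fit overlapping exons of 2 transcripts are dropped by the counting, and the use of strand was not stated. Whether any Timp gene lost reads in this way was not tested.

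The proteins that activate, inhibit or are cut by these enzymes were described from 5 lists of 68 genes, of which 60 had a row and 40 were tested. Without the block, 3 were higher and 1 was lower in MS+ against FBS, 2 and 3 in MS− against FBS, and none passed in MS+ against MS−, beside 9.61%, 4.81% and 0.0204% of all features in the same order. With the block these counts were 11 and 6, 9 and 8, and 3 and 2, beside 28.2%, 20.5% and 10.1%. The 4 of 40 in MS+ against FBS and the 5 of 40 with the block in MS+ against MS− are close to these shares of all features. The counts in MS− against FBS without the block, and in both comparisons with FBS under the block, were above these shares. The lists were chosen with earlier results of these data known. Sdc4, the syndecan that is known to bind ADAMTS enzymes at the cell surface, followed the order of Adamts1, at 517 and 525 CPM in MS+, 258 and 326 in MS−, and 140 and 204 in FBS. Its difference was 1.62 in MS+ against FBS (SE 0.19, limma adjusted p 0.00694), and 0.84 in MS+ against MS− (limma adjusted p 1.30e-04 with the block and 0.144 without it). The first was lost without MS+ replicate 1 (limma adjusted p 0.0607) or MS+ replicate 2 (0.0523).

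Acan, the aggrecan core protein and main substrate of the aggrecanases, measured 2671 and 2538 CPM in MS+, 1453 and 1827 in MS−, and 2585 and 3012 in FBS. It fell by 0.78 on the log2 scale in MS− against FBS (SE 0.15, limma adjusted p 0.0409), a call that was lost when any 1 library was left out (0.0868 to 0.227), and it was higher in MS+ than in MS− only with the block (0.68, limma adjusted p 6.93e-04 with it and 0.147 without it). Among activators, Pcsk6, a proprotein convertase, fell by 0.76 in MS+ and by 0.81 in MS− against FBS (limma adjusted p 0.0206 and 0.0226), and Pcsk7, another convertase, rose by 0.83 in MS− against FBS (limma adjusted p 0.0164). Plat, which converts plasminogen to plasmin, differed by 0.78 in MS+ against MS− (limma adjusted p 1.66e-04 with the block and 0.0917 without it). In MS− against FBS it fell by 0.49 (SE 0.10, limma adjusted p 0.0444), a call lost when any 1 library was left out (0.0856 to 0.236) and with no filter on low values (0.0641). Tfpi2, a serine proteinase inhibitor of the matrix, rose by 0.91 in MS+ and by 0.97 in MS− against FBS (limma adjusted p 0.0342 and 0.0423), and both calls were lost when any 1 library was left out. For Pcsk6 the MS+ call was lost without either FBS or either MS+ library and the MS− call without either FBS or either MS− library, and for Pcsk7 the call was lost without either FBS library or MS− replicate 1 (limma adjusted p 0.0579 to 0.146 over these fits).

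Mmp23 differed between the 2 cell preparations by more than any member differed between media. It was higher in rat 2 by 2.55 in MS+, 2.53 in MS− and 2.96 in FBS on the log2(CPM + 1) scale, a mean of 6.40-fold. Adamts5 was higher in rat 2 by 1.14, 1.04 and 1.51 in the same order. These were the 2 of 31 members (6.45%) that were at least 2-fold apart in the same direction in all 3 media, beside 90 of 9820 features (0.916%). Adamts15 (-0.75, -1.12 and -0.85) and Adamts2 (-0.64, -0.85 and -0.66) were lower in rat 2 in every medium. The same direction in all 3 media was seen for 21 of 31 members (67.7%), beside 42.4% of all features. With 1 preparation on each side this is a description of these 2 cultures and has no test.

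**Figure D4:**
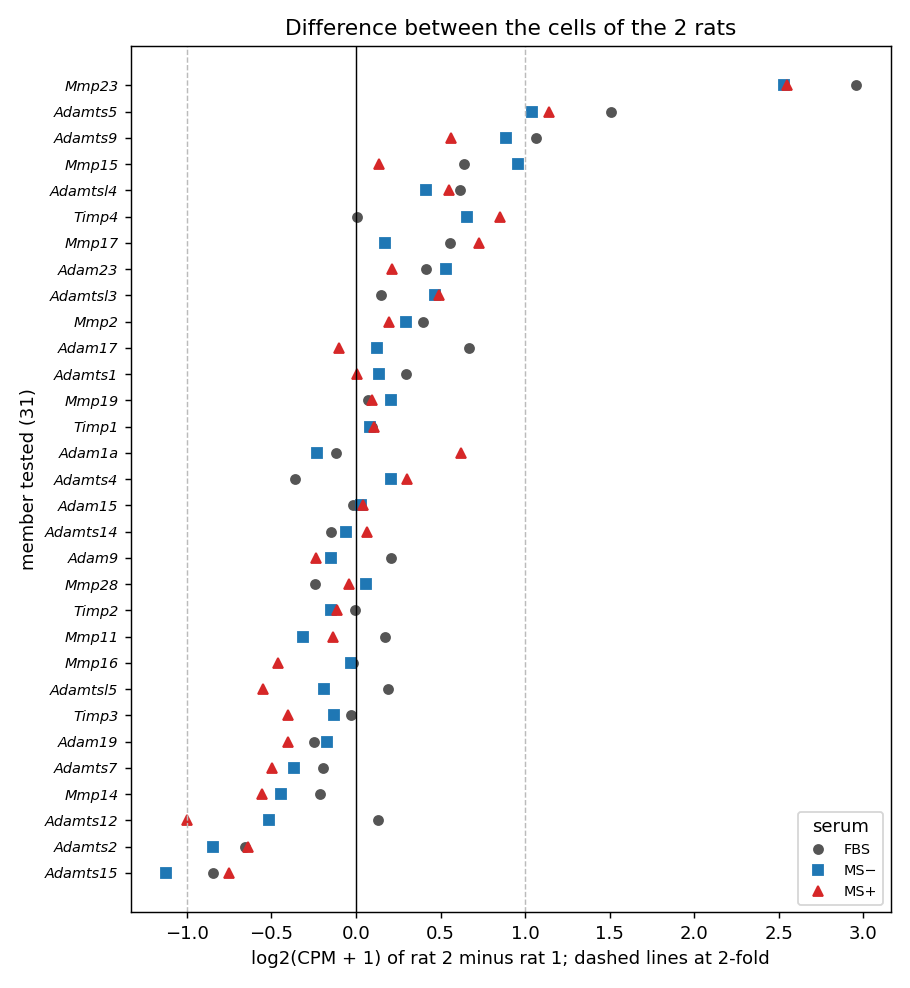
Difference between rat 2 and rat 1 in log2(CPM + 1) for each of the 31 tested members, with 1 point per medium (grey circles FBS, blue squares MS−, red triangles MS+) and dashed lines at a 2-fold difference. Mmp23 lies at 2.53 to 2.96 and Adamts5 at 1.04 to 1.51, to the right of the line in all 3 media.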

How the data were processed

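RNA of 6 libraries (2 cell preparations in 3 media) was poly(A)-selected and sequenced on an Illumina instrument. Per the labels and the study's methods, reads were aligned to rn4 with Bowtie2 2.1.0 and counted per transcript with HTSeq 0.5.4p3 in its intersection-nonempty mode (versions from the submitters' processing notes). The signal that the authors deposited is CPM on TMM-scaled library sizes from edgeR. Use of strand is not given in the sources used here. Whole reads were recovered from every column within a tolerance of 1e-06 reads.

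From this table, 9820 of 17221 rows, with both libraries of a group at 1 CPM or more, were tested with limma 3.58.1 in R 4.3.3 (lmFit, eBayes with trend, two-sided) on log2(CPM + 1), with medium as the term and all 6 libraries in the fit. The study used limma-voom, which was run as an alternative because CPM is not a count. Fold changes are on the log2(CPM + 1) scale, which understates those of low genes. The script was tested on simulated data.

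The labels carry the marks RA1 and RA2 in every medium, taken here as the same 2 sources of cells and called rats, and the difference between rats correlated across features by 0.59 (MS+ and MS−), 0.49 (MS+ and FBS) and 0.62 (MS− and FBS), so the rat was added as a block in a second fit, and its values are printed where they change a call. No library was a copy of its replicate (chi-square divided by its degrees of freedom, 13.6 to 15.1). Replicates are these preparations; the number of animals behind each was not given in the sources used here. Floors cover counting error only, since no molecular identifiers were used.

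Coordinates are rn4 transcript spans, written 1-based. The members and lists were chosen with earlier results of these data known. Named are all members past a threshold in any comparison, the 10 of highest mean CPM, and Mmp2, Mmp3, Mmp9, Mmp13, Mmp14, Adam17, Adamts4, Adamts5 and Timp1 to Timp3 whatever their values; of the partner lists, the 3 largest changes past the threshold per comparison. The other tested members are given by their range only. Mmp23, Acan, Plat, the rat difference, the promoter letters and the leave-one-out fits under the block were added after their values were seen. The alternatives were other filters, pseudocounts and scalings, edgeR 4.0.16, DESeq2 1.42.0 and limma-voom on the recovered reads, the block, and leaving out each library.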

Additional observations from a re-analysis of the deposited data

How the results depend on the processing

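The number of members past the adjusted threshold depended most on whether the rat entered as a block and on single libraries. In MS+ against MS− it was 0 of 31 in the main fit, 6 with the replicate block in limma, 5 with edgeR and the block and 3 with DESeq2, and it stayed at 0 when any 1 library was left out without the block. In MS+ against FBS it was 6, 14 with the block in limma and 14 with edgeR and the block, 4 with no filter on low values, and 2 to 5 when 1 library was left out (2 without FBS replicate 1 or FBS replicate 2). In MS− against FBS it was 3, 12 with the block in limma, 13 with edgeR and the block, 5 with DESeq2, and 0 to 3 when 1 library was left out (0 without either MS− library). The cause of these shifts was not tested. Apart from the main fit and the block in limma, the share of all features passing is not given here, so these counts are not set against it. Over the 32 differences of members given here, 488 values under an alternative kept their direction and side of the threshold, 51 moved past it, 33 fell short of it, and 1 reversed: Adamts2 in MS− against FBS, from -0.39 to 0.033 without MS− replicate 2 (-0.81 to 0.033 over the libraries left out). For the 14 differences of partner genes, 192 kept both, 13 moved past and 47 fell short. All these differences were chosen for passing in the main fit, in the blocked fit or at the study thresholds, and the block is itself an alternative. Most of those of members did not pass in the main fit, so keeping their side meant staying short of the threshold. The tally is therefore no measure of robustness. Other scalings moved the median of all features by at most 0.0470. Summing rows of a symbol changed no member, since each has 1 row, and at a filter of 5 CPM 26 of the 31 members were tested (Adam1a, Adamts15, Mmp15, Mmp23 and Timp4 gave no value). Depth limits the silent members: fewer than 3 reads, 0.491 to 0.551 CPM, could not be told from 0.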
